A study of Capra hircus with 9 samples.

Results

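Cytotoxic lymphocytes kill target cells with the contents of secretory granules, and this report describes 7 genes that mark such cells in the submandibular glands of goats: GZMA, GZMB, PRF1, NKG7, EOMES, TBX21 and CTSW. They were chosen by name as textbook genes of cytotoxic T cells and natural killer cells, with earlier results of these data known, and they made up 7 of the 21655 genes in the deposited table, with 10 of its 52739 transcripts. The study sequenced total RNA of the submandibular gland, a salivary gland, from healthy female Lubo goats aged 1, 12 and 24 months, with 3 goats and 3 libraries at each age. All goats were kept under the same conditions, and the glands were frozen directly after slaughter. The tissue was bulk gland, so fewer cells of a type and less RNA per cell cannot be told apart in any result below.

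Natural killer cells and CD8 T cells store perforin and granzymes in acidic granules, which fuse with the membrane at the contact with a target cell. Perforin opens the membrane of the target, granzymes enter and cleave proteins there, and the target dies. The T-box transcription factors TBX21 and EOMES control the expression of much of this machinery. Salivary glands are known to hold such lymphocytes between their acini and ducts.

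Depth ranged from 11.5e6 to 24.9e6 expected counts per library, and 3 counts, used here as a floor, corresponded to 0.145 to 0.189 CPM (counts scaled to a common library size). The gland label was checked with 7 markers of salivary acini and ducts, and their summed level in 1-month replicate 2 went against it. The sum was 235 CPM there, against 38690 and 25250 CPM in 1-month replicates 1 and 3 and 111700 to 203600 CPM in the 6 libraries of the older goats. The marker KRT19 did not drop in that library: it was at 121 CPM, against 86.5 and 88.7 CPM in the other 1-month libraries. Transcripts of the thymus were abundant at 1 month: RAG1, which cuts the antigen receptor loci in developing lymphocytes, was at 1516, 4183 and 645 CPM in 1-month replicates 1, 2 and 3 and at most at 0.818 CPM later. FOXN1, the factor that defines thymic epithelium, was at 15.7, 79.2 and 5.52 CPM in the same 3 libraries and at 0 to 0.103 CPM in the older ones. The summed level of 7 thymocyte genes was 1014 to 5549 CPM at 1 month and 0.991 to 3.23 CPM afterwards, leaving out SATB1, a gene of many tissues that held 344 to 798 CPM in the older libraries. Each older library listed 1 or 2 of these thymocyte genes at 0. The T cell list summed to 879 to 7199 CPM at 1 month, 12.7 to 22.6 CPM at 12 months and 27.4 to 30.5 CPM at 24 months. The part of these other tissues and cells in the differences below was not tested, and the counts of called genes against 1 month are given with and without 1-month replicate 2.

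**Figure D1:**
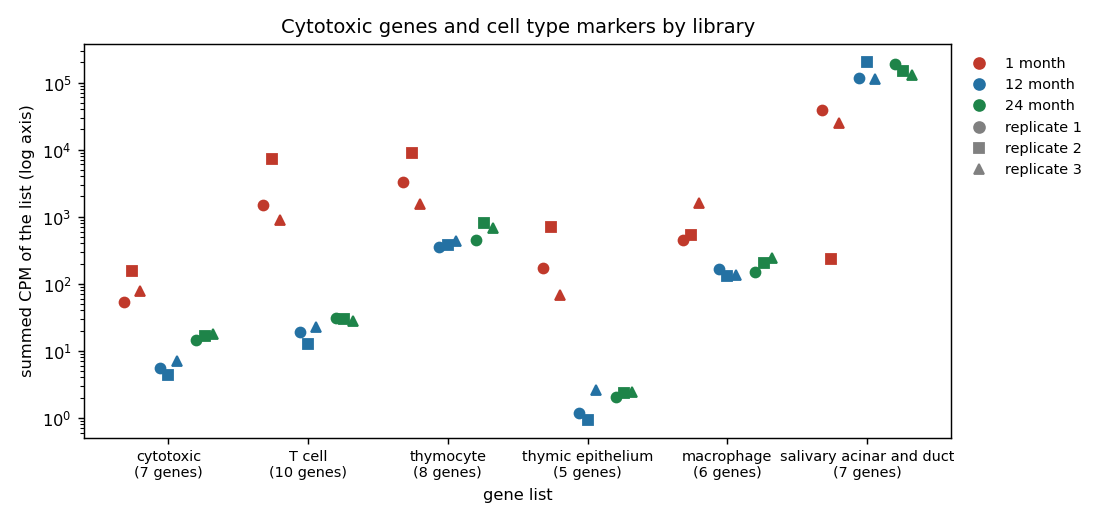
Summed CPM (log axis) of the 7 cytotoxic genes and of 5 lists of cell type markers in each of the 9 libraries, coloured by age, with the symbol giving the replicate. The square of 1-month replicate 2 lies at 235 CPM for the salivary list, below every other library, and is the highest of all libraries for the T cell, thymocyte and thymic epithelium lists.

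Across the 3 ages the group means of the 7 genes had the same order. The means were highest at 1 month, lowest at 12 months and intermediate at 24 months, without exception. Single libraries of 12 and 24 months overlapped for EOMES and GZMA, and before rounding of counts also for GZMB. The share of all genes with this order of means was not counted. The summed level of the 7 genes was 54.1, 155 and 78.0 CPM in the libraries at 1 month, 5.52, 4.40 and 7.10 CPM at 12 months, and 14.6, 16.6 and 18.1 CPM at 24 months. At 1 month the sum was highest in replicate 2, and the sums of the 3 ages did not overlap. CTSW made up 55.2%, 74.8% and 42.8% of the sum in 1-month replicates 1, 2 and 3, so the rank of replicate 2 is not that of each gene. GZMB, EOMES and TBX21 were highest in replicate 3, and GZMA was lowest in replicate 2.

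GZMA encodes granzyme A, a tryptase-like protease of the granules. It was at 3.46, 0.619 and 3.57 CPM in replicates 1, 2 and 3 at 1 month, at 0.390, 0 and 0.323 CPM at 12 months, and at 0.982, 0.242 and 0.0513 CPM at 24 months. The low library at 1 month was replicate 2, which fell within the range of the 24-month libraries, while 1 and 12 months did not overlap. The mean was 2.55 ± 1.67 CPM (SD, n = 3) at 1 month, 0.238 ± 0.209 at 12 months and 0.425 ± 0.492 at 24 months. The gene rested on few reads in the older goats, with 13.2 expected counts over all 3 libraries at 12 months and 23.9 at 24 months. A neighbouring locus, LOC102184761, is also annotated as granzyme A and could share reads with it, so the level of GZMA is uncertain to that extent. That locus had at most 8.84 expected counts in a library.

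GZMB encodes granzyme B, the protease that cleaves caspases and other substrates after aspartate. Its levels were 0.566, 1.55 and 2.195 CPM at 1 month, 0.223, 0.165 and 0.108 CPM at 12 months, and 1.04, 0.242 and 0.616 CPM at 24 months. The 12-month mean was the lowest, and the 12-month libraries lay apart from 1 month, whereas 1 and 24 months overlapped. CPM were computed from rounded counts, and 12 and 24 months lay apart only through this rounding. The nearest libraries were 12-month replicate 1, with 4.47 expected counts rounded down, and 24-month replicate 2, with 4.66 rounded up. The 12-month libraries had 4.47, 3.01 and 1.63 expected counts, at or near the floor of 3 counts. The means were 1.44 ± 0.820 CPM (SD, n = 3), 0.165 ± 0.0577 and 0.632 ± 0.397 at 1, 12 and 24 months. A granzyme B-like locus, LOC108633178, may share reads with GZMB.

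PRF1 encodes perforin, the pore-forming protein. It was at 4.27, 12.6 and 6.71 CPM at 1 month, at 0.502, 0.220 and 0.861 CPM at 12 months, and at 3.11, 2.57 and 3.75 CPM at 24 months. The 3 ages did not overlap, and the highest library was 1-month replicate 2. The group means were 7.88 ± 4.31 CPM (SD, n = 3), 0.528 ± 0.321 and 3.14 ± 0.590, in order of age. Expected counts for PRF1 were 8.93, 4.01 and 15.5 at 12 months and 56.8, 52.6 and 73 at 24 months.

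NKG7 encodes a membrane protein of cytotoxic granules that takes part in their exocytosis. Its levels were 7.48, 14.5 and 14.1 CPM at 1 month, 1.62, 0.936 and 2.05 CPM at 12 months, and 2.56, 3.06 and 4.16 CPM at 24 months. The ages were again separate, with every 24-month library above every 12-month library. Means were 12.0 ± 3.93 CPM (SD, n = 3), 1.53 ± 0.560 and 3.26 ± 0.816.

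CTSW encodes cathepsin W, a cysteine protease found mainly in natural killer cells and cytotoxic T cells. It was at 29.9, 116 and 33.4 CPM at 1 month, at 1.56, 1.21 and 2.31 CPM at 12 months, and at 3.44, 6.11 and 5.75 CPM at 24 months. The 1-month libraries stood far above the rest, and replicate 2 was 3.88 times the lowest 1-month library. The means were 59.7 ± 48.7 CPM (SD, n = 3), 1.70 ± 0.564 and 5.10 ± 1.45, and no age overlapped another.

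EOMES encodes eomesodermin, a T-box factor of natural killer cells and memory CD8 T cells. Its levels were 4.84, 5.63 and 6.90 CPM at 1 month, 0.0558, 0.385 and 0.377 CPM at 12 months, and 1.15, 0.921 and 0.308 CPM at 24 months. It varied least among the 1-month libraries, by 1.43 times, and the 24-month library of replicate 3 lay within the 12-month range. The means were 5.79 ± 1.04 CPM (SD, n = 3), 0.273 ± 0.188 and 0.792 ± 0.434.

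TBX21 encodes T-bet, the T-box factor of type 1 helper, CD8 T and natural killer cells. It was at 3.65, 4.18 and 11.2 CPM at 1 month, at 1.17, 1.49 and 1.08 CPM at 12 months, and at 2.35, 3.49 and 3.44 CPM at 24 months. The 3 ages did not overlap, although the highest 24-month library, at 3.49 CPM, came close to the lowest 1-month library. The means were 6.33 ± 4.19 CPM (SD, n = 3), 1.24 ± 0.214 and 3.09 ± 0.647.

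**Figure D2:**
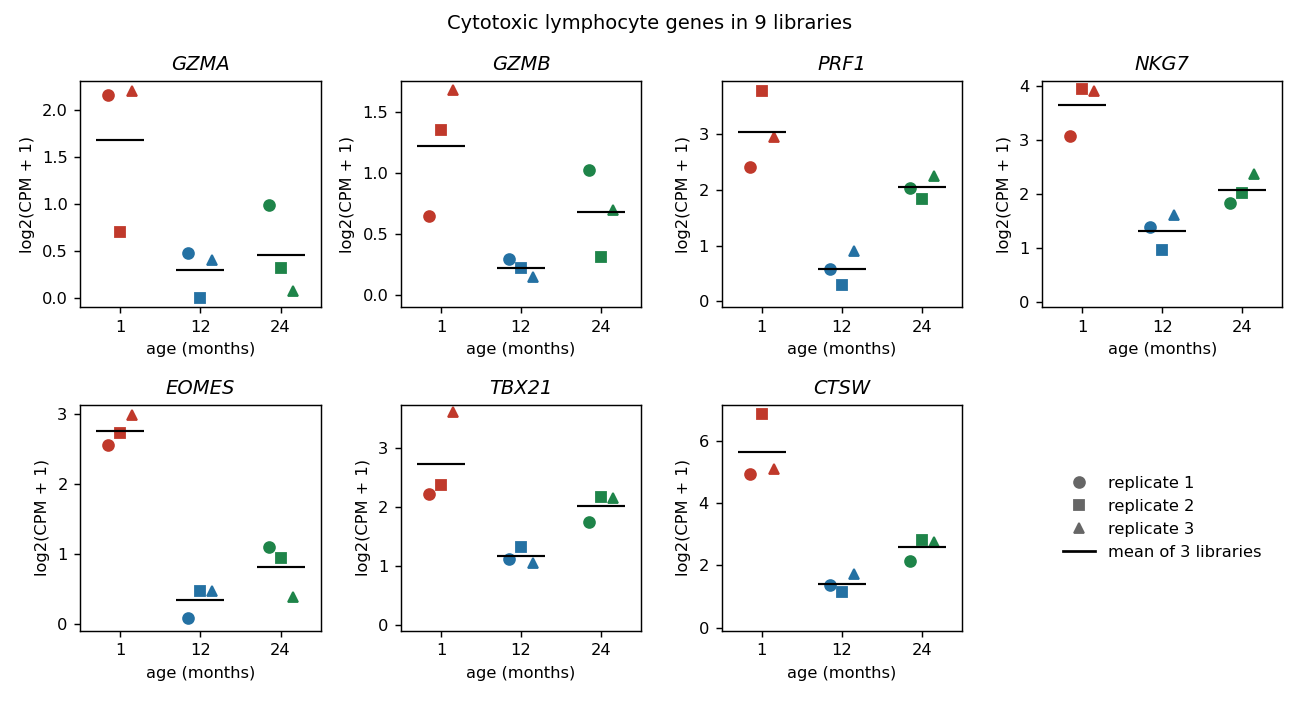
Level of each of the 7 genes, as log2(CPM + 1), against age in months, with 1 symbol per library and a line at the mean of 3 libraries. In every panel the mean is highest at 1 month and lowest at 12 months, and GZMA is listed at 0 in replicate 2 at 12 months.

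The first comparison asked how the glands of 12-month-old goats differed from those of 1-month-old kids. All 7 genes were lower at 12 months, by 35.2 times in mean CPM for CTSW, 21.2 times for EOMES, 14.9 times for PRF1, 10.7 times for GZMA, 8.69 times for GZMB, 7.84 times for NKG7 and 5.09 times for TBX21. Without 1-month replicate 2 the fold of CTSW was 18.6 times, below the 21.5 times of EOMES, and that of the other 5 genes was 5.95 to 14.8 times. With edgeR's quasi-likelihood test across all genes, Benjamini-Hochberg adjustment and the thresholds of the study (adjusted p under 0.05, absolute log2 fold change over 2), 6 of 7 were called lower, while 11.7% of all 14882 tested genes were called and 9.54% were called lower. The fitted log2 fold changes were -5.13 ± 0.73 (SE) for CTSW, -4.33 ± 0.69 for EOMES and -3.86 ± 0.71 for PRF1, with adjusted p of 0.0101, 0.0122 and 0.0162 by edgeR. GZMB fell by 3.03 ± 0.72 on the log2 scale (adjusted p = 0.0325), NKG7 by 2.93 ± 0.48 (adjusted p = 0.0131) and TBX21 by 2.28 ± 0.55 (adjusted p = 0.0347) in the same edgeR fit. GZMA, at -3.32 ± 1.11, did not pass (adjusted p = 0.0777, edgeR).

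The median fitted log2 fold change of the 7 genes was -3.32, beside -0.0234 over all tested genes. The CPM of the groups did not overlap for 7 of 7 genes, which was also the case for 53.5% of all tested genes, and for 26.5% with the older group lower. For each of the 7, a two-sided exact permutation test of the difference in mean log2(CPM + 1) gave p = 0.1, the smallest value that 3 against 3 allows, or 0.1235 after adjustment over the 7 genes and 3 comparisons. Without 1-month replicate 2 all 7 genes were called, GZMA included (log2 fold change -3.86, adjusted p = 0.0203, edgeR), against 12.5% of all genes, and CTSW was at -4.22. Without 1-month replicate 3 the called genes were 4 of 7 (CTSW, EOMES, NKG7 and PRF1), and without any single 12-month library none of the 7 was called, at adjusted p of 0.0557 to 0.196 by edgeR. In those 3 fits only 0, 75 and 125 genes were called in the whole table, and the log2 fold changes of the 7 genes stayed between -5.42 and -2.19.

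The second comparison set 24-month-old goats against the same 1-month-old kids, so it shares its 1-month libraries with the first. CTSW was 11.7 times and EOMES 7.31 times lower in mean CPM at 24 months, and without 1-month replicate 2 they were 6.20 and 7.41 times lower. By edgeR these 2 of 7 genes were called, beside 13.4% of all 14953 tested genes and 9.18% in the lower direction. The log2 fold change was -3.47 ± 0.67 (SE) for CTSW (adjusted p = 0.0140, edgeR) and -2.76 ± 0.64 for EOMES (adjusted p = 0.0235, edgeR). NKG7, at -1.78 ± 0.48, had an adjusted p of 0.0380 by edgeR but did not reach the fold threshold.

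The other granule genes and TBX21 did not pass against 1 month. In this edgeR fit GZMA was at -2.47 ± 1.06 (SE, adjusted p = 0.139) and PRF1 at -1.24 ± 0.55 (adjusted p = 0.152). GZMB was at -1.10 ± 0.80 (adjusted p = 0.365) and TBX21 at -0.91 ± 0.58 (adjusted p = 0.306), also by edgeR. The median over the 7 genes was -1.78 on the log2 scale, against -0.00806 for all tested genes. The CPM of 5 of 7 genes did not overlap between the ages, which held for 43.6% of all tested genes and for 23.2% with 24 months lower. The exceptions were GZMA and GZMB, with exact permutation p of 0.2 and 0.3, where the other genes were at the smallest possible 0.1.

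Without 1-month replicate 2, CTSW, EOMES and GZMA were called at 24 months, GZMA with a log2 fold change of -2.95 (adjusted p = 0.0495, edgeR), and 14.1% of all genes were called. Without 1-month replicate 1 the calls were CTSW and NKG7, and without replicate 3 only CTSW. None of the 7 was called by edgeR without any one of the 24-month libraries, with adjusted p from 0.0503 to 0.676, where the table as a whole held 1373, 553 and 309 called genes. CTSW ranged from -3.64 to -3.23 and EOMES from -3.07 to -2.37 on the log2 scale in those fits.

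The third comparison, of 24 with 12 months, was between ages that both had RAG1 at no more than 0.818 CPM and salivary sums of at least 111700 CPM. Here the mean level of each of the 7 genes was higher at 24 months: PRF1 by 5.96 times, GZMB by 3.82, CTSW by 3.01, EOMES by 2.91, TBX21 by 2.49, NKG7 by 2.13 and GZMA by 1.79 times. In CPM of rounded counts, all 3 libraries at 24 months were above all 3 at 12 months for 5 of 7 genes. These were GZMB, PRF1, NKG7, TBX21 and CTSW, and 6.29% of all 18747 genes with counts had this pattern. EOMES and GZMA overlapped. Before rounding, GZMB overlapped too once scaled to library size. It had 4.47 expected counts in 12-month replicate 1 and 4.66 in 24-month replicate 2, so its separation is not read as a result. The exact permutation p, also from rounded counts, was 0.1 for the 5 genes (0.1235 adjusted), 0.3 for EOMES and 0.8 for GZMA.

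The filter on low counts left 4 of 7 genes in this fit, since GZMA, GZMB and EOMES were too low at both ages. The log2 fold change was 2.60 ± 0.58 (SE) for PRF1, 1.64 ± 0.44 for CTSW, 1.36 ± 0.45 for TBX21 and 1.14 ± 0.47 for NKG7. Their unadjusted p by edgeR was 0.00139, 0.00441, 0.0135 and 0.0384, and the adjusted p was 0.429 for each. By edgeR's quasi-likelihood test no gene in the table passed, so that 0% were called, although 1559 of the 14287 genes had an unadjusted p under 0.05. PRF1 was called by the Wald test of DESeq2 (adjusted p = 0.0464), one of 13 genes in the table, and by edgeR's exact test (adjusted p = 0.0254), one of 16 genes. It was also called by the quasi-likelihood test without 24-month replicate 1 (adjusted p = 0.0203, edgeR), where 171 genes were called. Over all other single-library omissions the adjusted p of PRF1 by edgeR was 0.666 to 0.873. Without the filter GZMB was at 1.93, EOMES at 1.55 and GZMA at 0.85 on the log2 scale, with adjusted p of 0.479, 0.502 and 0.741 by edgeR.

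T cell markers were also higher at 24 than at 12 months in 9 of 10 fitted values, with a median log2 fold change of 0.75, and CD3E, a chain of the T cell receptor complex, was at 0.96 ± 0.51 (SE, adjusted p = 0.430, edgeR). PTPRC, the leukocyte marker CD45, was at 0.30 ± 0.23 (adjusted p = 0.506, edgeR). None of the 10 T cell markers was called. The 24-month libraries all lay above the 12-month libraries for 3 of 10 T cell markers (CD3D, CD3E and CD5) and also for PTPRC. Over all genes with counts the share with that pattern was 6.29%.

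**Figure D3:**
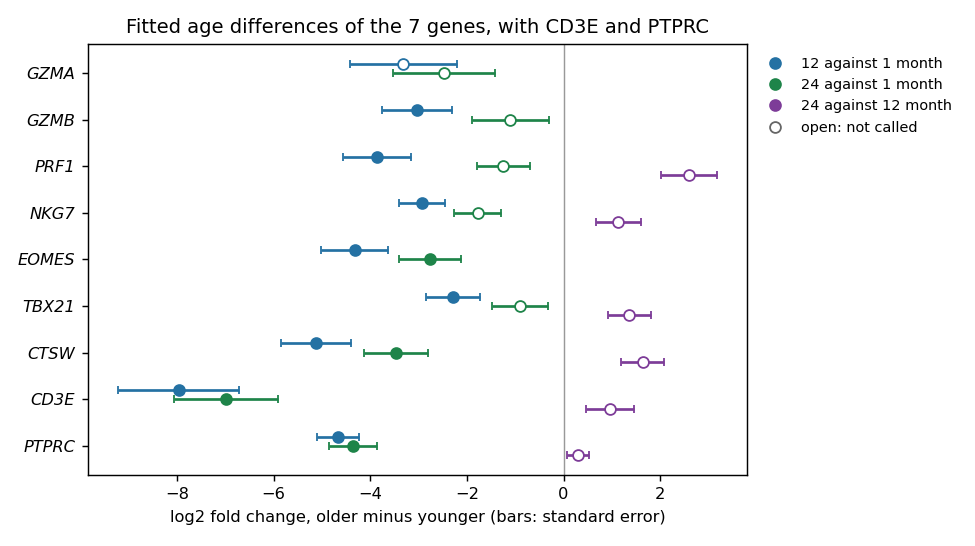
Fitted log2 fold change (older minus younger) with its standard error for the 7 genes and for CD3E and PTPRC in the 3 comparisons, with filled points for called genes. All values against 1 month lie left of 0, from -7.97 for CD3E to -0.91 for TBX21, and all values of 24 against 12 months lie right of 0, with PRF1 farthest at 2.60.

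General T cell genes had larger fitted differences from 1 month than most of the 7 genes, a contrast that was not tested. CD3E was at 159, 1102 and 118 CPM at 1 month, 2.51, 0.770 and 2.26 CPM at 12 months, and 3.33, 3.98 and 3.08 CPM at 24 months. All 10 T cell markers were called lower at both older ages, also without 1-month replicate 2, where the smallest differences were -3.55 and -3.59 on the log2 scale. With all libraries they had log2 fold changes of -9.74 to -4.46 at 12 months and -8.47 to -4.55 at 24 months, beside -5.13 to -2.28 and -3.47 to -0.91 for the cytotoxic genes. Per 100 CPM of CD3E, CTSW was at 18.7, 10.5 and 28.2 CPM at 1 month, 62.2, 157 and 102 CPM at 12 months, and 103, 154 and 187 CPM at 24 months. In this plain ratio the older libraries lay above all 1-month libraries for 5 of 7 genes at 12 months, with GZMA and EOMES overlapping, and for 6 of 7 at 24 months, with GZMA overlapping. With 1 CPM added to the gene and to CD3E they did so for 7 of 7 genes at both ages, with an exact permutation p of 0.1 for each (0.1 adjusted), as did 99.2% of all genes with a mean of at least 1 CPM at 12 months and 98.6% at 24 months, so nothing is read from it about the 7 genes. The direction of CTSW at 12 months turned with the reference gene, from a mean log2 ratio difference of 2.43 with CD3E to -0.56 with CD2 and -0.53 with TRAT1, also T cell genes.

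The 1-month libraries did not rank the genes alike. PRF1, NKG7 and CTSW were highest in replicate 2, the library with the highest T cell and thymocyte sums and the lowest salivary marker sum. GZMB, EOMES and TBX21 were highest in replicate 3, and GZMA was as high in replicates 1 and 3 and 5.77 times lower in replicate 2. Replicate 3 also had the highest macrophage sum at 1 month, 1587 CPM against 446 and 531 CPM, and the highest neutrophil and myeloid precursor sum, 1027 CPM against 15.2 and 54.7 CPM. Of 17 receptor and adaptor genes with counts, 10 were lowest in replicate 2 like GZMA, 4 in replicate 1 and 3 in replicate 3, so the list had no single pattern. Among those with the pattern of GZMA, KLRK1, the activating receptor NKG2D, was at 7.29, 0.826 and 12.0 CPM in 1-month replicates 1, 2 and 3. KLRD1, the CD94 subunit of an inhibitory or activating receptor pair, was at 1.26, 0.516 and 3.89 CPM in the same order. KLRF1, another lectin-like receptor, was at 2.33, 0.723 and 3.70 CPM there. These differences are between single libraries and carry no test.

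The rest of the cytotoxic machinery was read from 5 lists with 55 genes, of which 54 were in the table. Of the 48 tested at 12 against 1 month, 23 were called lower and 0 higher by edgeR, where 9.54% and 2.16% of all genes were, and the groups did not overlap with 12 months lower for 36 of the 53 genes with counts, beside 23.7% of all genes with counts. Of the 50 tested at 24 against 1 month, 17 were called lower and 0 higher, where 9.18% and 4.25% of all genes were, and 30 of 53 genes did not overlap in that direction, beside 21.4% of all genes with counts. Their median log2 fold changes were -2.45 and -1.79. Without 1-month replicate 2 the calls were 31 and 20, beside 12.5% and 14.1% of all genes. Without replicate 3 at 1 month they were 15 and 13 (9.61% and 10.1% of all genes). At 1 month, leaving out replicate 1 gave 19 and 19 (10.8% and 12.2% of all genes). Without 12-month replicates 1, 2 and 3 in turn they were 0, 2 and 3, where the whole table held 0, 75 and 125 called genes. The calls were 9, 2 and 1 without 24-month replicates 1, 2 and 3, where the whole table held 1373, 553 and 309.

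Of 9 other granule effectors, 3 were called lower at 12 months and 1 at 24 months, beside 9.54% and 9.18% of all genes. The counts were 4 and 2 without 1-month replicate 2, beside 10.4% and 9.76% of all genes. A count of 1 in 9 is near the share of all genes, and nothing is read from it. GZMH, granzyme H, was at 8.42, 3.05 and 8.34 CPM at 1 month, 1.06, 0.881 and 2.26 CPM at 12 months, and 2.95, 7.03 and 2.16 CPM at 24 months. It was lower at 12 than at 1 month (-2.17 ± 0.59, SE, adjusted p = 0.0468, edgeR), and its 24-month libraries overlapped those at 1 month. GZMK, granzyme K, did not pass in either comparison with 1 month, at -3.29 ± 1.01 and -2.36 ± 0.73 (adjusted p = 0.0641 and 0.0585, edgeR). SRGN, the proteoglycan core that packs granule proteins, was at -3.20 ± 0.75 at 12 months and at -3.94 ± 0.78 at 24 months (adjusted p = 0.0319 and 0.0151, edgeR). SERPINB9, an inhibitor of granzyme B, was lower at 12 months (-2.30 ± 0.57, adjusted p = 0.0372, edgeR). FASLG, the death ligand that kills without granules, was at 0.880, 1.29 and 1.13 CPM at 1 month and at 0 to 0.719 CPM in the older libraries, with adjusted p of 0.0582 and 0.286 by edgeR.

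Of 7 genes of granule exocytosis, 1 was called lower in each comparison with 1 month, beside 9.54% and 9.18% of all genes. That count is near the share of all genes, so nothing is read from it about the list. The median log2 fold changes were -0.25 and 0.04. Without 1-month replicate 2 the counts were 1 and 0, beside 10.4% and 9.76% of all genes. The gene called was UNC13D, Munc13-4, which primes granules for fusion. It was at 12.3, 44.9 and 20.9 CPM at 1 month, 2.40, 1.27 and 1.24 CPM at 12 months, and 3.76, 3.73 and 5.34 CPM at 24 months. Its log2 fold changes against 1 month were -3.98 ± 0.63 and -2.52 ± 0.57 (adjusted p = 0.0121 and 0.0220, edgeR). Other genes of this list, such as VAMP8 and LYST, serve vesicle traffic in many cell types, and the difference between lists was not tested.

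Receptors and adaptors had the most calls, 9 of 13 tested at 12 months and 8 of 15 tested at 24 months, all lower. Without 1-month replicate 2 they were 13 of 15 and 11 of 16. The shares of all genes called lower were 9.54% and 9.18%, or 10.4% and 9.76% without that library. SH2D1A, the adaptor SAP of the SLAM receptors, was at -8.34 ± 0.93 and -7.97 ± 0.71 on the log2 scale at 12 and 24 months (SE, adjusted p = 0.00678 and 0.00231, edgeR). HCST, the adaptor DAP10 of NKG2D, was at -5.79 ± 1.02 and -4.54 ± 0.88 (adjusted p = 0.0149 and 0.0141, edgeR). SLAMF7 and CRTAM, surface receptors of activated cytotoxic cells, were at -4.84 and -4.76 at 12 months (adjusted p = 0.00631 and 0.0202, edgeR). At 24 months KLRF1 was listed at 0 in all 3 libraries, at least 14.6-fold lower than at 1 month against a floor of 3 counts per library (adjusted p = 0.0147, edgeR). KLRB1, the receptor CD161, had 1.17 expected counts in 1 library at 24 months and 0 in the others (adjusted p = 0.0185, edgeR). KLRK1 did not pass in either comparison with 1 month (-1.66 ± 0.86 and -1.41 ± 1.04, adjusted p = 0.197 and 0.374, edgeR), nor did KLRD1 (-2.51 ± 1.16 and -2.15 ± 1.28, adjusted p = 0.160 and 0.270, edgeR). CD8A, the co-receptor of cytotoxic T cells and also of thymocytes, was at 188, 612 and 101 CPM at 1 month, 1.90 to 3.23 CPM at 12 months and 2.88 to 6.71 CPM at 24 months.

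Among 12 cytokine and cytokine receptor genes, 10 were tested in each comparison with 1 month. Of these, 5 were called lower at 12 months and 4 at 24 months, beside 9.54% and 9.18% of all genes. Without 1-month replicate 2, 8 and 5 of 11 tested genes were called lower, beside 10.4% and 9.76% of all genes. CCL5, the chemokine RANTES released by cytotoxic cells, was at 5.22, 6.30 and 5.52 CPM at 1 month, 0.502, 0.330 and 0.592 CPM at 12 months, and 2.46, 2.38 and 4.36 CPM at 24 months. The 3 ages of CCL5 did not overlap. It was lower at 12 than at 1 month (-3.53 ± 0.45, SE, adjusted p = 0.00840, edgeR), and at 24 months it did not pass (-0.79 ± 0.50, adjusted p = 0.297, edgeR). From 12 to 24 months its log2 fold change was 2.72 ± 0.54, with an adjusted p of 0.429 by the quasi-likelihood test of edgeR, and CCL5 was the 1 gene of the 5 lists that the Wald test and the exact test called there. XCL1, a chemokine of natural killer and CD8 T cells, was called lower at both ages (-5.57 ± 1.18 and -3.70 ± 0.93, adjusted p = 0.0242 and 0.0302, edgeR). The subunits IL12RB1 and IL12RB2 of the interleukin-12 receptor were also called lower at both ages, IL12RB1 at -4.43 and -2.86 and IL12RB2 at -3.69 and -3.69. IL18R1, a chain of the interleukin-18 receptor, was called at 24 months (-3.13 ± 0.88, adjusted p = 0.0433, edgeR). IFNG, the main cytokine of these cells, was listed at 0 in 8 libraries and at 0.44 expected counts in 1-month replicate 3, which is below the floor.

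Of 9 further transcription factors, 5 were called lower at 12 months and 3 at 24 months, beside 9.54% and 9.18% of all genes. The counts were 5 and 2 without 1-month replicate 2, beside 10.4% and 9.76% of all genes. STAT4, which acts below the interleukin-12 receptor, was at -3.44 ± 0.50 and -3.43 ± 0.60 (SE, adjusted p = 0.0106 and 0.0107, edgeR). TOX, a factor of thymocytes and exhausted CD8 T cells, was at -3.63 and -2.995, and IRF8, a factor of myeloid cells and lymphocytes, at -2.74 and -2.41, all called. RUNX3, which maintains the CD8 lineage, was called at 12 months (-2.91 ± 0.59, adjusted p = 0.0210, edgeR) and did not pass at 24 months (-2.17 ± 0.69, adjusted p = 0.0637, edgeR).

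At 24 against 12 months, 0 of 38 tested genes of the 5 lists were called by the quasi-likelihood test of edgeR, and their median log2 fold change was 0.40. All 24-month libraries were above all 12-month libraries for 9 of 53 genes with counts, and none lay apart in the other direction, where the share over all genes with counts was 6.29% for the first and 6.73% for the second. The 9 genes were GNLY, SERPINB9, UNC13D, KLRC1, HCST, CCL5, XCL1, IL12RB1 and ZNF683, some of which are outside the naming rule and are listed after their values were seen. XCL1 lay apart only through the rounding of counts. It had 3.27 expected counts in 12-month replicate 3 and 3.21 in 24-month replicate 1, near the floor of 3 counts.

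**Figure D4:**
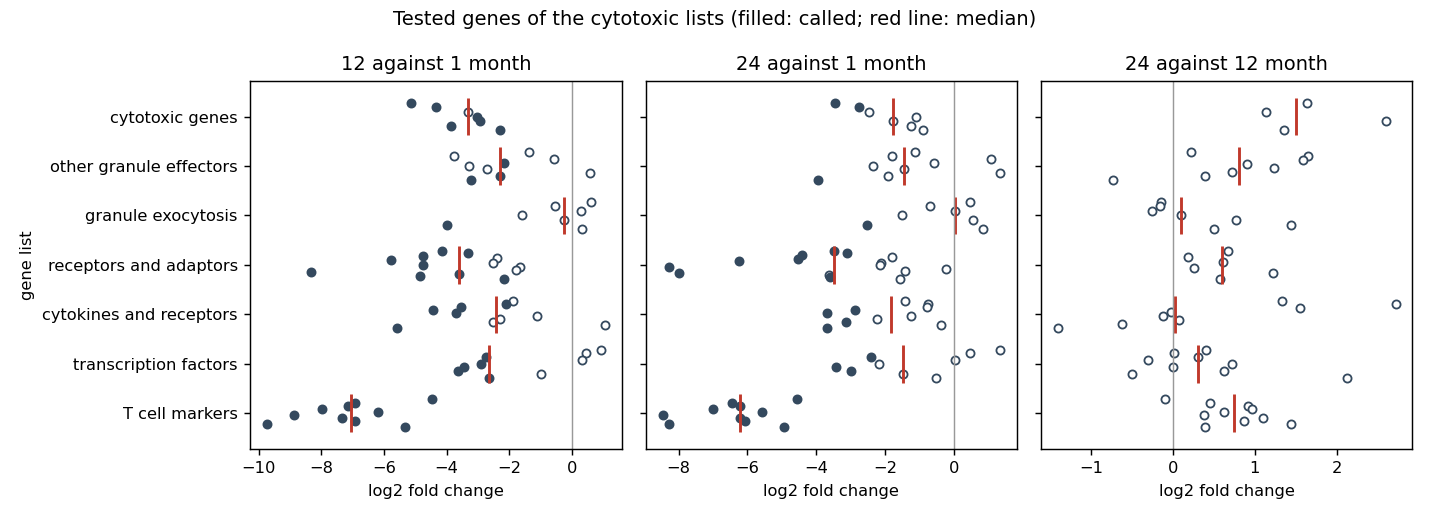
Fitted log2 fold change of each tested gene of the cytotoxic lists and of the T cell markers in the 3 comparisons, 1 point per gene, filled where called, with a red line at the median of the list. Against 1 month the T cell markers lie farthest to the left, with medians of -7.05 and -6.22, the 7 cytotoxic genes lie at -3.32 and -1.78, and granule exocytosis lies near 0. The far left point of the receptors at 24 against 1 month is KLRF1, whose fitted value against libraries at 0 is no bound, and no point is filled at 24 against 12 months.

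Over the 9 libraries the 7 genes were correlated with each other on the log2(CPM + 1) scale, with Pearson's r from 0.513 (GZMA and PRF1) to 0.965 (NKG7 and CTSW). The 9 points comprise 3 ages, so these values include the difference between ages and are a description. Among the genes with a mean of at least 1 CPM, the levels most like those of CTSW belonged to SH2D2A (r = 0.992), TRAC (0.991) and ITGAL (0.990). For NKG7 they were PSMB9 (0.989), IRF1 (0.986) and PREX1 (0.985), and for PRF1 they were CCL5 (0.958), IRF1 (0.947) and TSPAN7 (0.945). EOMES was closest to PLAC8 (0.987), LOC108634590 (0.982) and ZNF831 (0.979), and TBX21 to CD22 (0.961), UBA7 (0.960) and C2 (0.958). The values were lowest for the sparsely counted GZMB, with GIMAP1 (0.937), MEGF10 (0.920) and NLRC5 (0.919), while GZMA had LXN (0.984), LOC102169913 (0.962) and LOC108635823 (0.953).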

How the data were processed

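Per the labels and methods, the authors removed ribosomal reads with Bowtie2 2.2.8, aligned the rest to a goat genome with TopHat2 2.1.1, assembled transcripts with Cufflinks and estimated their abundance with RSEM. The genome build is not given in the sources used here. The deposited expected counts covered 42686 known and 10053 new transcripts in 9 libraries. Of the known transcripts, 42652 (99.9%) were matched by accession to RefSeq gene names (ARS1.2). In 24-month replicate 3, 25.1% of values above 0 were whole numbers, against at most 2.22% elsewhere.

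Expected counts were summed per gene, rounded and filtered with filterByExpr. Pairs of ages were compared with edgeR 4.0.16 (TMM scaling, quasi-likelihood test, Benjamini-Hochberg adjustment over all genes tested). Calls needed an adjusted p under 0.05 with a log2 fold change above 2 or below -2. The FPKM filter of the study could not be applied to counts. CPM are TMM-scaled from the rounded counts and were not compared between genes, apart from the share of CTSW in the summed level. Single genes were tested on log2(CPM + 1) with a two-sided exact permutation test, and p-values measure the spread between goats. The fit was tested on simulated data. Alternatives included DESeq2 1.42.0, other scalings, no filter, a replicate block and the omission of each library, and the alternatives of summed granzyme copies, single transcripts, each list without 1-month replicate 2, TRAT1 as the reference gene and plain ratios to CD3E were chosen after seeing the data.

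The members and lists were chosen with earlier results of these data known. The text names all 7 members, called genes of the 5 cytotoxic lists (at most 4 per list and comparison, by fold), 8 further genes in any case (GZMK, GZMH, KLRD1, KLRK1, IFNG, CCL5, FASLG and CD8A), the 3 most correlated genes per member, and CD3E, RAG1 and FOXN1. Of the listed genes, 13 without a symbol, GZMB among them, were found by product name. B cell, plasma cell, macrophage and neutrophil markers were also listed.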

Additional observations from a re-analysis of the deposited data

How the results depend on the processing

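No called value reversed its direction under an alternative. At 12 against 1 month, 6 of the 7 genes were called, and 0 to 7 without single libraries (0 without each 12-month library), 3 with the replicate block and 1 with single transcripts. Of the genes of the 5 lists 23 were called, 0 to 31 without single libraries and 13 with the block. At 24 against 1 month, the 2 called genes became 0 to 3 without single libraries and 0 with single transcripts, and the 17 called genes of the lists became 1 to 20. At 24 against 12 months, the 0 called genes became 1 (PRF1) by the Wald test of DESeq2, 1 by edgeR's exact test and 0 to 1 without single libraries. For the lists the 0 became 1, 1 and 0 to 2 in the same settings. Omitting a library leaves fewer samples, and the cause of the lost calls was not tested further. With granzyme copies summed, the called members against 1 month stayed at 6 at 12 months and 2 at 24 months. The exact permutation p of CTSW at 12 against 1 month was 0.1 relative to CD2 and 1.0 relative to TRAT1.

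The replicate numbers did not pair the goats. Libraries of the same number deviated together with correlations of -0.101 to -0.094, -0.179 to 0.339 and -0.0929 to -0.0185 in the 3 comparisons. With the block, 895, 1803 and 7 genes of the whole table were called, against 1740, 2008 and 0 without it. Upper-quartile scaling moved the median log2 fold change of all genes at 24 against 1 month from -0.008 to -0.113, with the same count of called members. Whole-table counts by the Wald test were 2525, 2729 and 13, by the exact test 2286, 2547 and 16.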

Other observations

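Of 6 B cell markers, 4 were called lower at 12 and at 24 months against 1 month by edgeR, where 9.54% and 9.18% of all genes were, with median log2 fold changes of -4.03 and -3.99. Without 1-month replicate 2 the counts were 4 and 3 and the medians -3.61 and -2.83. Of 6 plasma cell markers 5 went the other way in their fitted values, with list medians of 1.90 and 1.63. MZB1 was fitted lower at both ages, at -1.06 ± 0.43 and -0.77 ± 0.61 (SE). By edgeR 0 of 6 were called, or 2 and 0 called higher without 1-month replicate 2. At 24 against 12 months 3 of 6 plasma cell markers were fitted lower and 3 higher, with a median of 0.12. Against 1 month, 4 and 5 of 6 macrophage markers were called lower at 12 and 24 months, with medians of -2.77 and -2.26. For 6 neutrophil and myeloid precursor markers the counts were 3 and 4 and the medians -5.7 and -6.2. The shares over all genes were the same 9.54% and 9.18%. Without 1-month replicate 2, 5 of 6 were called lower at each age in both lists.

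The transcripts behind some of the 7 genes differed between libraries of 1 age. At 24 months EOMES had 21.4 expected counts in replicate 1, all on one of its RefSeq transcripts, and 18.7 and 6 in replicates 2 and 3, all on the other. CTSW at 12 months had 26.5 of its 43.3 expected counts in replicate 3 on a transcript assembled by the study, which had 0 in replicates 1 and 2. TBX21 at 24 months had 17.3 of 42.8 expected counts in replicate 1 on such a transcript, and 0 in replicates 2 and 3. The counts are few, and no test was made.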
